A study of Rattus norvegicus with 6 samples.

Results

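The genes described here are 10 matrix proteases and protease inhibitors, taken by symbol from the 17648 genes of the deposited expression matrix: MMP2, MMP3, MMP9, MMP14, MMP15, TIMP2, TIMP3, ADAM10, ADAM17 and ADAMTS1. The RNA was that of cultured neurons from the spinal cord of newborn Sprague-Dawley rats, kept for 3 days before the injury model, and 6 libraries were sequenced. All cultures had received Ara-C, a compound that kills dividing cells, at 0.05 mg/mL, 24 h after plating. The Glu + siR-Con group (n = 3) received a control siRNA (a small interfering RNA, which lowers the transcript it matches), and the Glu + siR-GAL3 group (n = 3) an siRNA against galectin-3 (GAL3), a sugar-binding lectin. According to the methods and the design text, both groups received 10 μM glutamate for 1 h, the excitotoxic model of neuronal injury, followed by 16 h without glutamate. The treatment label of the samples instead gives saline for the 3 siR-Con libraries and calls the siR-GAL3 samples a knockout. If that label were right, glutamate and the loss of GAL3 could not be told apart. There was 1 siRNA against GAL3, and the methods speak of independent repeats only for the study in general. No source used here says it of these libraries, so p-values measure only the spread between these libraries.

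The values were on a linear scale derived from FPKM, a measure scaled to transcript length and library size, and had then been corrected by the authors for batches and for differences within groups. How far that correction moved the levels of genes against each other is not known, so the order of levels given here is that of the deposited values. Some values were below 0, the depth of each library is unknown, and each SD is the spread left after that correction. The targeted gene, LGALS3, was 77.4, 54.4 and 62.4 in the siR-Con libraries and -1.64, 32.3 and 18.5 in the siR-GAL3 libraries. Libraries that shared many exactly equal values fell into 3 sets, namely a first with replicate 1 of each group, a second with replicate 3 of each group and siR-Con replicate 2, and the last with siR-GAL3 replicate 2 by itself, which also stood apart on the first principal component. The culture was labelled as neurons, but RBFOX3, which encodes the neuronal nuclear antigen NeuN, lay between 0.300 and 0.429. MAP2, a dendritic protein gene, lay between 13.1 and 19.0, while the astrocyte gene GFAP lay between 514.8 and 757.7 and the myelin gene MBP between 628.6 and 918.5 (RBFOX3, MAP2 and MBP were picked after their values were seen). In such a bulk sample, fewer cells of a type and less RNA per cell cannot be told apart.

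Matrix metalloproteinases (MMPs) and their relatives are zinc-dependent enzymes that cut the proteins of the extracellular matrix and the outer parts of membrane proteins. Most are made as inactive precursors. MMP14 sits in the cell membrane and activates the precursor of the gelatinase MMP2, a step in which TIMP2 at low amounts acts as a bridge and at high amounts as an inhibitor. Tissue inhibitors of metalloproteinases (TIMPs) block the active sites of these enzymes, and TIMP3 also inhibits ADAM17 and aggrecan-cutting ADAMTS enzymes. ADAM10 and ADAM17 are membrane-bound sheddases, which release the outer parts of proteins such as Notch, N-cadherin and tumour necrosis factor. In the injured spinal cord these enzymes are known for opening the blood-spinal cord barrier and for remodelling the glial scar.

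Promoter sequence was found for 7 of the 10 genes in the RefSeq table of rat assembly GRCr8, and not for MMP2, MMP9 and MMP14. The promoters shown are those of MMP15 and TIMP3, the members with separate groups that were in the table, and of MMP3, the member with the lowest level. Each is the 250 bases before the transcription start, read 5′ to 3′ on the strand of the gene. Capitals mark matches on either strand to the AP-1 motif TGANTCA, the GC box GGGCGG and the TATA box TATAAA, and no match overlapped another. The sequences lie at chr19:9691001-9691250 on the minus strand for MMP15, chr7:19459559-19459808 on the minus strand for TIMP3 and chr8:12925031-12925280 on the plus strand for MMP3.
MMP15: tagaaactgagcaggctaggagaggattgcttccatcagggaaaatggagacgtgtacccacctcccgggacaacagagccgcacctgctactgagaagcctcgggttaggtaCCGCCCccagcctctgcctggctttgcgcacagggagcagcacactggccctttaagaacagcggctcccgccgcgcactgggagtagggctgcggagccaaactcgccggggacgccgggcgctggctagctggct
TIMP3: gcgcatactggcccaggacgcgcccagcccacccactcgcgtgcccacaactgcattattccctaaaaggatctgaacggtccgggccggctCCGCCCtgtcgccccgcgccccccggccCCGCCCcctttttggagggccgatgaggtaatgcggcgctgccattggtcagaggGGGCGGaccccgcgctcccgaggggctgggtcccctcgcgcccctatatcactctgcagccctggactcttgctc
MMP3: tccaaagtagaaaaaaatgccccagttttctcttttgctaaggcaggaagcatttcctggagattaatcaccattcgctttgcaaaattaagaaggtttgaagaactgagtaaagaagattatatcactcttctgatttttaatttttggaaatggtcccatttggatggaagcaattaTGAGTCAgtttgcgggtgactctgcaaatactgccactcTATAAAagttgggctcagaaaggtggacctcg
The MMP15 promoter held 1 GC box and the TIMP3 promoter 3, and neither held an AP-1 or TATA match. The MMP3 promoter held 1 AP-1 match and 1 TATA match, with no GC box, and had a GC content of 38.8%, against 63.6% for MMP15 and 69.6% for TIMP3. Of the 7 members, 6 had a GC box, 2 had a TATA match (MMP3 and ADAMTS1) and 1 had an AP-1 match. Over all 33469 promoters of this length in the table, 30.5% held the GC box, 12.9% the TATA match and 6.34% the AP-1 match. A match describes letters in this window and is not a measured binding site.

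MMP14 was the most abundant member and ranked 225th of all 17648 genes by mean value. In the siR-Con group the order of the mean levels was MMP14 (38.6 ± 1.85), TIMP2 (16.9 ± 0.864), ADAM10 (7.48 ± 0.112), TIMP3 (5.90 ± 0.119), MMP2 (5.05 ± 0.278), MMP15 (4.43 ± 0.189), ADAM17 (3.44 ± 0.136), ADAMTS1 (1.34 ± 0.0893), MMP9 and MMP3 (SD, n = 3 each). In this group only the neighbours MMP9 and MMP3 overlapped. The same order held in the siR-GAL3 group, where the SD was larger for 7 of the 10 genes, and the neighbouring pairs ADAM10 and TIMP3, TIMP3 and MMP2, and MMP15 and ADAM17 overlapped there.

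**Figure D1:**
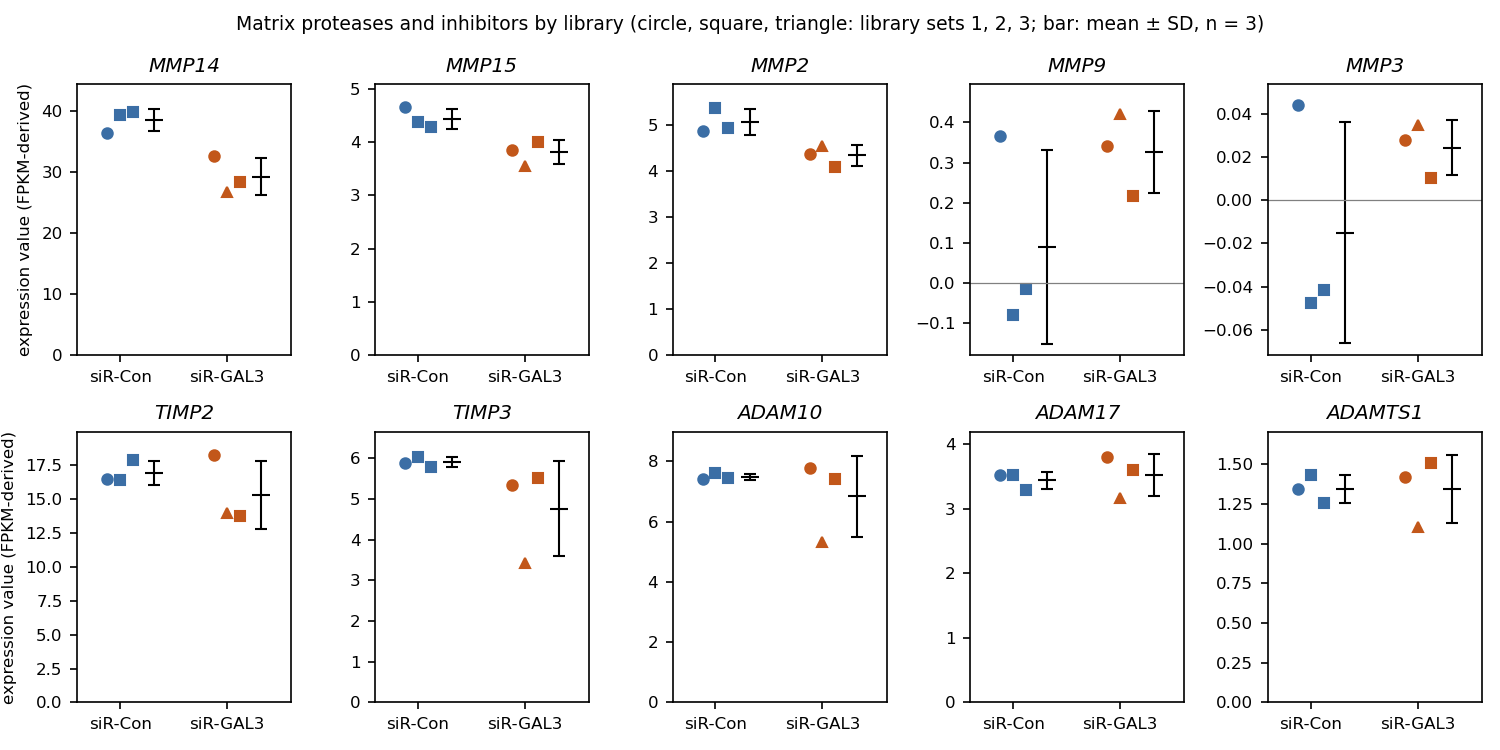
Expression values (FPKM-derived, linear axes) of the 10 genes in each library, with siR-Con in blue and siR-GAL3 in orange. Marker shapes stand for the 3 library sets and bars for mean ± SD (n = 3). MMP14, MMP15, MMP2 and TIMP3 have separate groups with siR-GAL3 lower, while MMP9 and MMP3 lie near or below 0.

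The comparison of Glu + siR-GAL3 with Glu + siR-Con asked how these genes differed when GAL3 was reduced. The membrane-anchored proteases MMP14 and MMP15, the gelatinase MMP2 and the inhibitor TIMP3 were lower in every siR-GAL3 library than in every siR-Con library, by between 14.2% and 24.1% of the mean. The other inhibitor, TIMP2, and the sheddases overlapped between the groups, as did ADAMTS1 and the scarcely detected MMP9 and MMP3. The siR-GAL3 library with the most LGALS3 left, replicate 2 (32.3), had the lowest MMP14, MMP15 and TIMP3 of its group, but the highest MMP2. Whether the members followed the LGALS3 level across libraries was not tested. Of the 10 genes, 8 had a mean of at least 1 and could be tested in limma, and all 8 lay above 1 in every library. No member had a Benjamini-Hochberg adjusted p under 0.05, as for 0.00% of the 8495 genes tested. The unadjusted p was under 0.05 for 3 of the 8, all lower in siR-GAL3, against 4.25% of all genes tested in that direction and 8.66% in either. The groups did not overlap for 4 of the 8, all lower, against 10.3% of all genes in that direction and 20.5% in either, and 7 of the 8 had a log2 fold change below 0, against 50.0% of all genes. No member had a log2 fold change beyond 1 in size with an unadjusted p under 0.05, against 0.318% of all genes. The median log2 fold change was -0.16 over the 8 members and -1.2e-05 over all genes tested.

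MMP14 showed the smallest p of the members. Its values, in the order of replicates 1 to 3 here and below, were 36.5, 39.4 and 39.9 with siR-Con and 32.7, 26.9 and 28.4 with siR-GAL3. All siR-GAL3 libraries lay below all siR-Con libraries. The mean was 38.6 ± 1.85 (SD, n = 3) in siR-Con and 29.3 ± 3.00 (SD, n = 3) in siR-GAL3, which was 24.1% lower (two-sided p = 0.1 by exact permutation, which with 3 libraries a group cannot go lower). In limma the log2 fold change was -0.39 (standard error 0.09, 95% interval -0.60 to -0.17, unadjusted p = 0.00363, adjusted p = 0.262). The unadjusted p was under 0.05 in all 6 fits that each left out 1 library. The adjusted p in these fits ran from 0.0759 without siR-GAL3 replicate 2 to 0.872 without siR-Con replicate 3. The difference was also present within both library sets that held both groups, with 32.7 against 36.5 in the first and 28.4 against a mean of 39.6 in the second.

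MMP15, a second membrane-type MMP, was less abundant. Its values were 4.65, 4.37 and 4.29 in the siR-Con libraries and 3.85, 3.56 and 4.001 in the siR-GAL3 libraries. The groups did not overlap, and siR-GAL3 replicate 3 lay nearest to the controls. MMP15 was 14.2% lower in siR-GAL3, with a log2 fold change of -0.18 (95% interval -0.34 to -0.02, unadjusted p = 0.0358, adjusted p = 0.536 in limma). The unadjusted p was above 0.05 without siR-Con replicate 1 (0.124), siR-Con replicate 2 (0.0829), siR-Con replicate 3 (0.0657) or siR-GAL3 replicate 1 (0.0671).

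MMP2, the gelatinase whose precursor MMP14 activates, was 4.85, 5.37 and 4.94 in the siR-Con libraries and 4.36, 4.54 and 4.09 in the siR-GAL3 libraries. Again every siR-GAL3 library was the lower. The mean was 14.3% lower, with a log2 fold change of -0.18 (95% interval -0.35 to -0.02, unadjusted p = 0.0347, adjusted p = 0.535 in limma). This p was under 0.05 without siR-GAL3 replicate 2 (0.00641) but not without siR-Con replicate 1 (0.0549), siR-Con replicate 2 (0.137), siR-Con replicate 3 (0.0730), siR-GAL3 replicate 1 (0.0692) or siR-GAL3 replicate 3 (0.117).

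MMP9, the other gelatinase, had values of 0.366, -0.0796 and -0.0152 with siR-Con and of 0.342, 0.420 and 0.217 with siR-GAL3. The control in the first library set thus lay above a pair of the siR-GAL3 libraries, and both controls of the second set lay below all of them (exact permutation p = 0.3). MMP3, the stromelysin that cuts proteoglycans and other MMP precursors, was 0.0439, -0.0474 and -0.0416 in siR-Con and 0.0277, 0.0346 and 0.0101 in siR-GAL3 (exact permutation p = 0.4). Both genes were under the filter on low values, and no fold is given where controls were listed below 0.

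TIMP3, the matrix-bound inhibitor, was 5.88, 6.03 and 5.80 in the siR-Con libraries and 5.35, 3.43 and 5.52 in the siR-GAL3 libraries. The groups were separate, but siR-GAL3 replicate 2 lay far below the other 2 siR-GAL3 libraries. The mean was 19.2% lower and the log2 fold change was -0.28 (95% interval -0.63 to 0.07, unadjusted p = 0.101, adjusted p = 0.588 in limma). Without siR-GAL3 replicate 2 the log2 fold change was -0.10 (unadjusted p = 0.0652).

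TIMP2, the soluble inhibitor that joins MMP14 and the precursor of MMP2, was 16.4, 16.4 and 17.9 in siR-Con and 18.2, 13.95 and 13.7 in siR-GAL3. The groups overlapped, and siR-GAL3 replicate 1 had the highest value of all libraries. The log2 fold change was -0.15 (95% interval -0.42 to 0.13, unadjusted p = 0.247, adjusted p = 0.628 in limma). Without siR-GAL3 replicate 1 it was -0.27 (unadjusted p = 0.0155), so this library decides on which side of 0.05 the p lies. Within the library sets the direction was not the same, with 18.2 against 16.4 in the first set and 13.7 against a mean of 17.1 in the second.

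The value of MMP14 divided by that of TIMP2 in the same library was 2.22, 2.40 and 2.23 in siR-Con and 1.79, 1.93 and 2.07 in siR-GAL3. The ratio was thus lower in each siR-GAL3 library than in each siR-Con library. It was chosen with the values of both genes known and was not tested. For MMP14 divided by the other inhibitor, TIMP3, the groups overlapped, at 6.20, 6.52 and 6.89 in siR-Con and 6.10, 7.83 and 5.15 in siR-GAL3. For MMP14 divided by MMP2 the values overlapped, at 7.52, 7.33 and 8.09 in siR-Con and 7.48, 5.92 and 6.94 in siR-GAL3.

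ADAM10, the sheddase of Notch and N-cadherin, was 7.40, 7.61 and 7.43 in siR-Con and 7.78, 5.31 and 7.41 in siR-GAL3. Only siR-GAL3 replicate 2 stood apart, and the groups overlapped. Its log2 fold change was -0.13 (95% interval -0.43 to 0.17, unadjusted p = 0.346, adjusted p = 0.663 in limma), and it turned to 0.02 without siR-GAL3 replicate 2. ADAM17, the sheddase of tumour necrosis factor, was 3.52, 3.52 and 3.29 in siR-Con and 3.81, 3.17 and 3.60 in siR-GAL3. The groups overlapped, with a log2 fold change of 0.02 (95% interval -0.16 to 0.21, unadjusted p = 0.765, adjusted p = 0.890 in limma), which turned to -0.0018 without siR-Con replicate 3 and to -0.02 without siR-GAL3 replicate 1. ADAMTS1, a secreted protease that cuts aggrecan and versican, was 1.34, 1.43 and 1.26 in siR-Con and 1.42, 1.11 and 1.51 in siR-GAL3. Its log2 fold change was -0.0033 (95% interval -0.20 to 0.19, unadjusted p = 0.969, adjusted p = 0.989 in limma), and it was 0.02 without siR-Con replicate 2 and 0.07 without siR-GAL3 replicate 2. The intervals of ADAM10 and ADAMTS1 contain the -0.18 of MMP15 and MMP2, and that of ADAM17 reaches -0.16, so the data do not show that these 3 genes were equal between the groups.

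**Figure D2:**
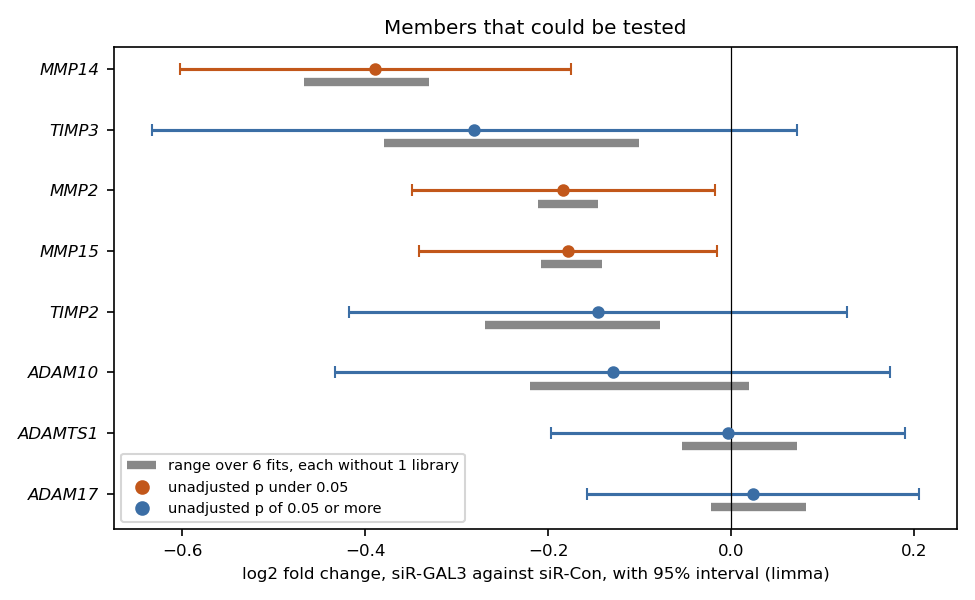
Log2 fold change (horizontal axis, siR-GAL3 against siR-Con) of the 8 members tested, with 95% intervals from limma and grey bars for the range over the 6 fits that each leave out 1 library. MMP14, at -0.39, lies farthest below 0, and the grey bars of ADAM10, ADAM17 and ADAMTS1 cross 0.

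The remaining genes of matrix proteolysis were taken from lists chosen with earlier results of these data known. Of 17 other MMPs, 14 were in the matrix and 2 had a mean of at least 1, so that MMP14, MMP19, MMP2, MMP15 and MMP24 were the MMPs present at that level. MMP19, a secreted MMP of basement membranes, was 8.86, 8.50 and 8.10 in siR-Con and 6.58, 6.47 and 6.45 in siR-GAL3. It was 23.4% lower with no overlap (log2 fold change -0.34, standard error 0.06, unadjusted p = 0.00115, adjusted p = 0.168 in limma). MMP24, a membrane-type MMP of neurons, overlapped between the groups (log2 fold change -0.04, unadjusted p = 0.589). The 5 MMPs at that level were thus all lower in mean, against 50.0% of all genes with a log2 fold change below 0, and 4 of them did not overlap, against 10.3% of all genes in that direction. This count reuses the members MMP14, MMP15 and MMP2 and was formed with their values known, so only MMP19 and MMP24 are added by it.

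Among 7 other ADAM proteases, 3 were tested and all 3 had a log2 fold change below 0, with an unadjusted p under 0.05 for ADAM9 alone. ADAM9, a widely expressed sheddase, was 6.62, 7.33 and 7.12 in siR-Con and 6.51, 4.64 and 5.90 in siR-GAL3 (log2 fold change -0.27, unadjusted p = 0.0472, adjusted p = 0.574 in limma). Its lowest control and highest siR-GAL3 library nearly met, and without siR-GAL3 replicate 2 the log2 fold change was -0.16. The unadjusted p was 0.0658, 0.130 and 0.113 when the 3 controls were left out in that order, and it was 0.0683 without siR-GAL3 replicate 3. Of 17 other ADAMTS proteases, 3 were tested, 2 higher and 1 lower. The lower one was ADAMTS9, at 1.99, 2.62 and 2.44 in siR-Con and 2.02, 1.74 and 1.63 in siR-GAL3, with an overlap between the groups (log2 fold change -0.26, unadjusted p = 0.0295, adjusted p = 0.529 in limma). The unadjusted p of ADAMTS9 was 0.109, 0.0904 and 0.0974 without siR-Con replicate 2, siR-Con replicate 3 and siR-GAL3 replicate 3. ADAMTS4, an aggrecanase, was more abundant than ADAMTS1 and overlapped between the groups, at 5.83 ± 0.233 in siR-Con and 5.96 ± 0.428 in siR-GAL3 (SD, n = 3 each).

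Of 11 genes listed as other metalloprotease inhibitors and modulators, 5 were tested, 2 higher and 3 lower. The list also holds PCOLCE and PCOLCE2, which are known as enhancers of procollagen processing by BMP1, and PCOLCE is 1 of the 3 counted as lower, with a log2 fold change of -0.0022. TIMP1, the inducible TIMP, was nearly as abundant as TIMP2 and overlapped between the groups, at 14.3 ± 1.91 in siR-Con and 13.5 ± 2.29 in siR-GAL3 (SD, n = 3 each; log2 fold change -0.08, unadjusted p = 0.585 in limma). SPOCK2, a testican proteoglycan, was 3.20, 3.27 and 3.42 in siR-Con and 2.74, 1.56 and 2.31 in siR-GAL3 (log2 fold change -0.44, unadjusted p = 0.0146, adjusted p = 0.440 in limma). It was the only gene of this list with an unadjusted p under 0.05.

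The partners of ADAM10 and ADAM17, namely tetraspanins, inactive rhomboids and activating convertases, numbered 13, of which 8 were tested, 2 higher and 6 lower. None had an unadjusted p under 0.05 in limma, against 8.66% of all genes, and none had an adjusted p under 0.05. The smallest p was that of FRMD8, which stabilises the ADAM17 complex at the cell surface, with values of 11.41, 9.85 and 10.96 in siR-Con and 9.21, 9.65 and 9.36 in siR-GAL3. Its groups were separate by a small gap (log2 fold change -0.17, unadjusted p = 0.0537, adjusted p = 0.577), and the p was 0.0328 without siR-Con replicate 2 and 0.0205 without siR-GAL3 replicate 2. Of 25 known ADAM10 and ADAM17 substrates, 17 were tested, 5 higher and 12 lower, and 4 had an unadjusted p under 0.05, 1 higher and 3 lower, against 8.66% of all genes in either direction. The substrate with the smallest p was the membrane chemokine CXCL16, at 2.58, 2.34 and 1.83 in siR-Con and 3.72, 4.21 and 3.03 in siR-GAL3, higher with no overlap (log2 fold change 0.52, unadjusted p = 0.00466, adjusted p = 0.288). The junctional adhesion gene JAM2 and the neuronal adhesion gene NRCAM were lower with no overlap, with log2 fold changes of -0.23 and -0.31 (unadjusted p = 0.00692 and 0.0140, adjusted p = 0.334 and 0.437 in limma). For NRCAM the unadjusted p was 0.0509 without siR-Con replicate 3.

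The plasminogen system is a serine protease cascade that feeds into MMP activation. Of its 11 genes, 5 were tested, and 3 had an unadjusted p under 0.05, all higher in siR-GAL3, against 4.41% of all genes tested in that direction. PLAU, the urokinase plasminogen activator, was 1.11, 0.940 and 0.875 in siR-Con and 1.56, 1.39 and 1.51 in siR-GAL3. The groups were well separated for PLAU (log2 fold change 0.33, standard error 0.07, unadjusted p = 0.00173, adjusted p = 0.210 in limma). With means of 0.974 in siR-Con and 1.49 in siR-GAL3, PLAU passed the filter only through siR-GAL3. The count of higher genes in this list therefore leans in that direction. SERPINE2, the glia-derived inhibitor of plasminogen activators and thrombin, was 28.6, 26.5 and 26.0 in siR-Con and 29.4, 32.2 and 32.2 in siR-GAL3. It was 15.5% higher in mean (log2 fold change 0.20, unadjusted p = 0.0304, adjusted p = 0.534 in limma), and the p was above 0.05 without siR-Con replicate 2 (0.10), siR-Con replicate 3 (0.112) or siR-GAL3 replicate 3 (0.0912). SERPING1, the C1 inhibitor of the complement and contact systems, was 3.09, 0.286 and -0.322 in siR-Con and 6.95, 5.38 and 7.37 in siR-GAL3. Its unadjusted p was 0.00346 and its adjusted p 0.262 in limma, and no fold is given because a control was listed below 0. The siR-Con mean of SERPING1, 1.02, rested mainly on replicate 1. PLAT, the tissue plasminogen activator, was lower with no overlap, with means of 22.8 and 21.02 (log2 fold change -0.12, unadjusted p = 0.194). It was named after its values were seen.

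Of 9 astacin and other matrix proteases, 4 were tested, 2 higher and 2 lower. BMP1, which trims procollagens, was the only one with an unadjusted p under 0.05, at 14.1, 16.5 and 16.1 in siR-Con and 14.03, 10.998 and 13.1 in siR-GAL3. Its first siR-GAL3 library nearly reached the lowest control (log2 fold change -0.28, unadjusted p = 0.0341, adjusted p = 0.535 in limma). Without siR-GAL3 replicate 3, siR-Con replicate 2 or siR-Con replicate 3 its unadjusted p was 0.0569, 0.113 and 0.103. With all 6 libraries and no block, no gene of these pathway lists had an adjusted p under 0.05 in limma. In the alternative fits the adjusted p of MMP19 was 0.0452 in the fit with library sets and 0.0257 without siR-GAL3 replicate 2. That of PLAU was 0.0324 without siR-GAL3 replicate 2, and that of SERPING1 was 0.00757 without siR-Con replicate 1. Each was above 0.05 in its other alternative fits, up to 0.770, 0.855 and 0.855 without siR-Con replicate 2. Without siR-Con replicate 1 the SERPING1 controls left were 0.286 and -0.322, the latter set to 0. In that fit SERPING1 passed the filter only through siR-GAL3, so its low adjusted p there leans on that choice. Over all genes, 106 had an adjusted p under 0.05 with library sets, 167 without siR-GAL3 replicate 2 and 17 without siR-Con replicate 1. Because siR-GAL3 replicate 2 is alone in its set, the fit with library sets takes no group difference from it. That fit and the fit without siR-GAL3 replicate 2 are therefore not separate checks.

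**Figure D3:**
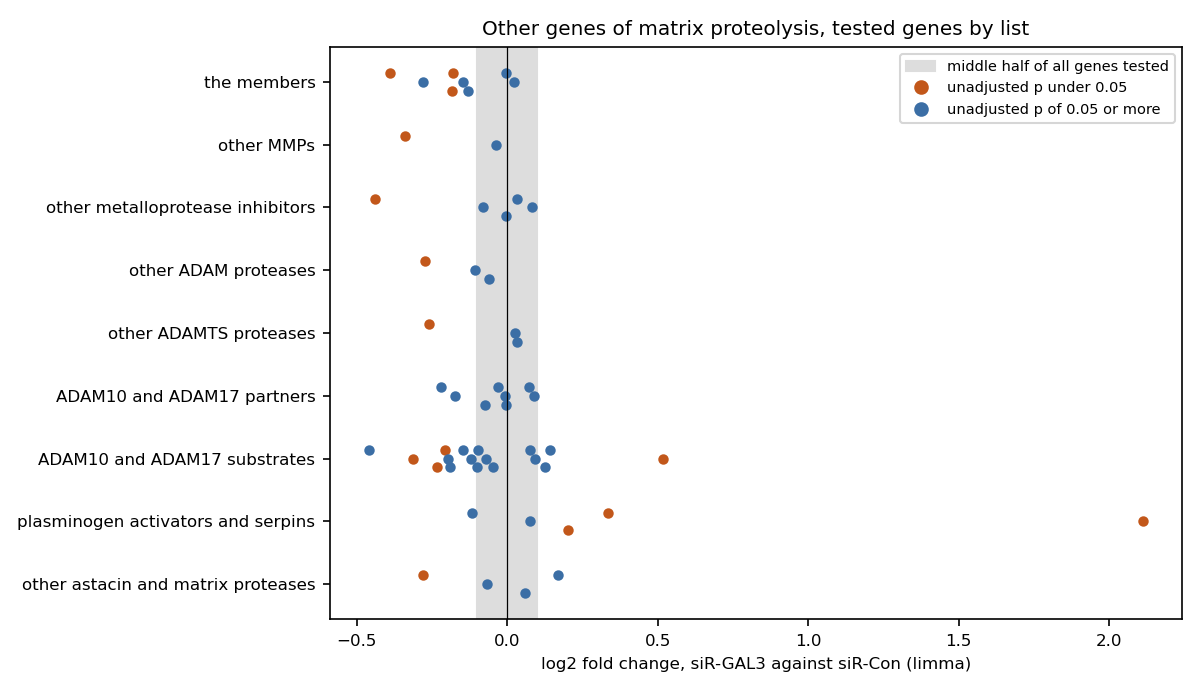
Log2 fold change (horizontal axis, siR-GAL3 against siR-Con) of each tested gene of the 10 members and of 8 other lists of matrix proteolysis, 1 point per gene. Orange points have an unadjusted p under 0.05 in limma, and the grey band runs from the lower to the upper quartile of all genes tested. The MMPs lie at or below 0, and the point near 2.11 is SERPING1, whose value rests on a control listed below 0.

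MMP14 was compared with every other tested gene by the mean absolute difference of log2(value + 1) over the 6 libraries, each gene centred on its own mean. The 3 nearest genes were SLC6A11 (0.0306), a GABA transporter, ITGB4 (0.0334), the laminin-binding integrin subunit, and LAMA2 (0.0404), a laminin chain. SLC6A11 was 5.88, 6.47 and 6.53 in siR-Con and 4.83, 4.27 and 4.58 in siR-GAL3. ITGB4 was 9.60, 11.04 and 11.3 in siR-Con and 8.98, 7.86 and 7.70 in siR-GAL3. LAMA2 was 1.41, 1.75 and 1.61 in siR-Con and 1.12, 0.782 and 0.989 in siR-GAL3. With means of 1.59 in siR-Con and 0.964 in siR-GAL3, LAMA2 passed the filter only through siR-Con. In MMP14 and in these 3 genes siR-Con replicate 1 was the lowest control and siR-GAL3 replicate 1 the highest of its group, and these libraries form the first library set. The 3 genes were chosen for nearness to MMP14 over these libraries, so the shared order follows in part from that choice.

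**Figure D4:**
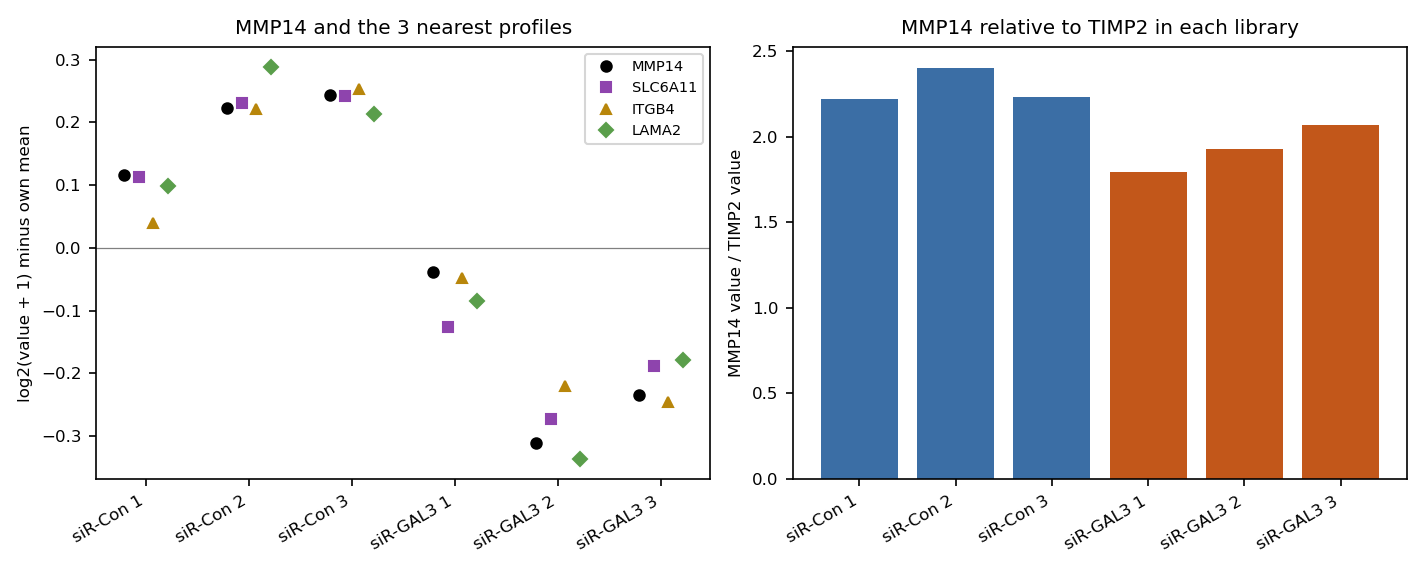
Left, log2(value + 1) minus the mean of each gene over the 6 libraries (vertical axis) for MMP14, SLC6A11, ITGB4 and LAMA2, with points offset sideways. Right, the value of MMP14 divided by that of TIMP2 in each library, with siR-Con in blue and siR-GAL3 in orange. The ratio lies between 2.22 and 2.40 in siR-Con and between 1.79 and 2.07 in siR-GAL3.

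No marker of the 6 cell type lists had an adjusted p under 0.05 in limma with all 6 libraries and no block, and the smallest was 0.101, for CD68, the phagocyte lysosomal protein. The counts below are of unadjusted p, which was under 0.05 for 4.25% of all genes as lower and 4.41% as higher in siR-GAL3. Of 12 fibroblast and meninges markers, 10 were tested and 9 were lower in siR-GAL3, 4 with an unadjusted p under 0.05, against 50.0% and 4.25% of all genes. Their summed level lay between 52.9 and 60.8 in siR-Con and between 40.3 and 46.3 in siR-GAL3. This sum and those of the lists below are unweighted, so the most abundant genes of a list carry most of it. The collagen genes COL3A1 and COL1A1 were lower by 30.9% and 26.5% of the mean, with no overlap. They held most of the fibroblast and meninges sum, while DCN was higher in mean (3.61 in siR-Con and 4.11 in siR-GAL3). Of 8 astrocyte markers, all were tested and 6 were lower, 4 with an unadjusted p under 0.05 (4.25% of all genes), and their summed level was 927.6 to 1069 in siR-Con and 801.5 to 865.7 in siR-GAL3. Most of this sum was GFAP, with means of 655.4 in siR-Con and 523.7 in siR-GAL3. SLC1A3 (21.5 and 22.6) and GJA1 (31.1 and 31.4) were slightly higher in mean. GFAP, the astrocyte filament, was 20.1% lower (unadjusted p = 0.0243, adjusted p = 0.510 in limma). Its unadjusted p was above 0.05 without siR-Con replicate 2 (0.0533), siR-GAL3 replicate 1 (0.0553) or siR-GAL3 replicate 3 (0.0618), and with no filter (0.116). Of 12 microglia markers, 11 were tested and all 11 were higher, 6 with an unadjusted p under 0.05 (4.41% of all genes), with sums of 111.1 to 131.7 in siR-Con and 141.5 to 162.0 in siR-GAL3. CD68 was 50.3% higher, and its adjusted p was 0.0135 in the fit with library sets and 0.00689 without siR-GAL3 replicate 2. In its other alternative fits the adjusted p was above 0.05, up to 0.502 without siR-Con replicate 2. Neither of the fits with a CD68 adjusted p under 0.05 takes a group difference from siR-GAL3 replicate 2. Of 12 neuron markers, 6 were tested, 4 higher and 2 lower, 1 with an unadjusted p under 0.05 (STMN2, higher), with sums of 33.8 to 38.7 and 31.99 to 38.7. STMN2 (means of 0.822 in siR-Con and 1.29 in siR-GAL3) and SYP (0.941 and 1.16) passed the filter only through siR-GAL3. The fibroblast and meninges marker SLC6A13 (1.24 and 0.904) passed it only through siR-Con. The counts of these lists lean in those directions. Of 10 oligodendrocyte lineage markers, 9 were tested, 6 higher and 3 lower, with sums of 1055 to 1126 and 1063 to 1385. Of 8 endothelial markers, 6 were in the matrix and all 6 had a mean under 1. No marker of these lists was listed at or below 0 in any library. The part of these marker levels in the lower MMP14, MMP15, MMP2 and TIMP3 was not tested.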

How the data were processed

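RNA of 6 libraries, 3 per group, was sequenced. Per the supplement, the authors aligned reads with STAR, counted them with HTSeq and estimated FPKM. Batch removal, standardization and a correction within groups followed, with tools not given in the sources used here. Nor is the genome build given there. The deposited values, treated as an expression score on a linear scale, are therefore no longer FPKM, and 3.86% were below 0. Such a correction can narrow the spread within groups, and with it p-values. FPKM had been the unit planned. The labels give ribosomal RNA depletion and the supplement poly-T selection of mRNA, so the library type is uncertain.

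Columns were matched to samples by name and all were used. After values below 0 had been replaced by 0, the fit used log2(value + 1) of the 8495 genes whose mean over the libraries reached 1, in limma 3.58.1 (R 4.3.3) with an intensity trend and Benjamini-Hochberg adjustment over all genes. On that scale low genes show less than their full fold change. Single genes were compared by two-sided exact permutation tests of the values as deposited. Figures and promoter searches used Python 3.11.15.

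The members and lists were chosen with earlier results of these data known. All members were named, with counts for each list and up to 3 genes of each list with the smallest p. Of these, mainly those with an unadjusted p under 0.05 are described. The alternatives were a smaller pseudocount (0.1), the filter dropped or raised to a mean of 5, scaling by quantiles or by median ratios, fits with neither trend nor log2 in turn, blocks for the replicate number or the library set, and fits lacking 1 library each.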

Additional observations from a re-analysis of the deposited data

How the results depend on the processing

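MMP14 was lower with an unadjusted p under 0.05 in all 15 alternative fits, and MMP2, MMP15, TIMP2 and TIMP3 were lower in each fit that included them. No member had an adjusted p under 0.05 in any fit. With the library set as a block, ADAM10 turned to 0.017 and ADAMTS1 to 0.076. ADAMTS1 also turned to 0.0097 with quantile normalization and to 7.7e-05 units without log2. With 1 library left out, ADAM10 lay between -0.220 and 0.0195, ADAM17 between -0.0216 and 0.0820, and ADAMTS1 between -0.0541 and 0.0721, and each changed sign. These members had no p under 0.05 in any fit.

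The 3 members with an unadjusted p under 0.05 became 1 with a mean of at least 5, which removes MMP2, MMP15, ADAM17 and ADAMTS1, and the 7 members lower became 4. When single libraries were left out, 1 to 3 members had an unadjusted p under 0.05 and 5 to 8 were lower. Over all genes, 736 had an unadjusted p under 0.05. This became 1623 with no filter, 260 with a mean of at least 5, 1174 in the fit with library sets and 362 to 1381 when single libraries were left out. The 0 genes with an adjusted p under 0.05 became 6 with the replicate block, 106 in the fit with library sets and 0 to 167 when single libraries were left out, the most without siR-GAL3 replicate 2, the lone member of its set. The fit with library sets likewise takes no group difference from that library.

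The deviations of same-numbered libraries from their group means correlated at -0.17, -0.07 and 0.04, and not every library correlated best with its own number. These values had already been corrected for batches and for differences within groups, which could have removed such a correlation. Some same-numbered libraries also shared a library set. Whether the replicate numbers pair the libraries is therefore not known. With the replicate block, 1 member, MMP14, had an unadjusted p under 0.05, and 543 genes did over all. The depth is unknown, so MMP9 and MMP3 cannot be told from absent.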
